A study of Mus musculus with 6 samples.

Results

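The data described here are the counts of 10 mouse genes for receptors that guide myeloid cells along gradients of chemoattractants other than the classical chemokines, together with the fractalkine receptor. The members were taken by symbol from the deposited count table through GENCODE vM21, and are Fpr1, Fpr2, C5ar1, C5ar2, C3ar1, Ltb4r1, Ptafr, Cmklr1, Ccrl2 and Cx3cr1, 10 of the 21780 genes of the table. All 10 passed the filter on low counts. The cells came from male and female C57BL/6J mice of 6 to 8 weeks injected into the peritoneum with either PBS or 1 mg of WGP, the particulate β-glucan of baker's yeast. Pancreata were taken 7 days later and digested, and viable cells positive for CD45, the common leukocyte antigen, and CD11b, an integrin of myeloid cells, were sorted by FACS. Libraries of polyadenylated RNA were made from 10 ng of total RNA each, 3 from PBS and 3 from WGP mice. Each library stands for a separate animal of a single experiment, as the study's legend to these data states, and the labels themselves do not say so. The sex of the mice behind a library is not in the labels.

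Most of these receptors are seven-transmembrane proteins that couple to inhibitory G proteins. Formyl peptides shed by bacteria and mitochondria, the complement fragments C5a and C3a, the lipids leukotriene B4 and platelet-activating factor, and the protein chemerin bind them, and the cell then polarizes, migrates, degranulates or makes reactive oxygen species. A few members bind a ligand without classical G protein signalling and act as scavenging or presenting receptors. In myeloid cells, formyl peptide receptors are best known from neutrophils and inflammatory monocytes, and the fractalkine receptor from Ly6C-low monocytes and many tissue macrophages.

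The PBS libraries held 35334645 to 40580936 counts each, and the WGP libraries 38240913 to 43341834. The marker genes of the sort were present, with Ptprc, which encodes CD45, at a mean of 986 TMM-scaled CPM (counts scaled to a common library size) in PBS and 1610 CPM in WGP, Itgam, which encodes CD11b, at 228 and 395 CPM, and the macrophage receptor gene Csf1r at 3367 and 2713 CPM. Ptprc (adjusted p = 0.00725, edgeR) and Itgam (adjusted p = 0.00618) were themselves higher in WGP, short of the call. The summed level of the 8 markers of sorted and myeloid cells was 10076 to 16443 CPM in PBS and 22998 to 24162 CPM in WGP. Lyz2, the most abundant and the only 1 called higher, made this gap, at 4933, 8043 and 8230 CPM in PBS and 16480, 15657 and 16887 CPM in WGP. Without Lyz2 the sums overlap, a split looked at after the values were seen. Of the 8, 5 had a log2 fold change above 0 and 3 below 0. The part of these changes in the receptor results was not tested. PBS replicate 1 stood apart from the other PBS libraries. Its summed level of 10 resident macrophage markers was 9397 CPM against 16154 and 19571 CPM, while its summed levels of 10 neutrophil markers (6360 CPM against 3634 and 2396 CPM) and of 5 B cell markers (2414 CPM against 621 and 361 CPM) were the highest of the PBS libraries. PBS replicates 2 and 3 held 8972 and 10063 counts of 4 Y-linked genes, while PBS replicate 1 and the WGP libraries held at most 1. The sex of the mice may thus be partly confounded with the treatment. The presence of Y-linked counts could be separated from the treatment only through PBS replicate 1. Where leaving out this library, or Y-linked counts as a covariate, changed a call or a direction of a member, both values are given.

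Expression of 4 of the 10 receptor genes rose after WGP and that of 1 fell. Fpr2 and Fpr1, the formyl peptide receptor genes, rose most, followed by Ccrl2 and Ptafr, and Cx3cr1 fell. The other 5, which include all 3 complement receptor genes, did not pass the test. A gene was called at an adjusted p of at most 0.05 (edgeR quasi-likelihood test, Benjamini-Hochberg over 14429 genes) and a log2 fold change of 1 or more in size. Over all genes tested, 4.53% were called higher and 4.96% lower, 9.49% in either direction. By the adjusted p alone, the same numbers of members, 4 and 1, were higher and lower, against 7.54% and 6.81% of all genes tested. Every WGP library was above every PBS library for the 4 genes that rose, which held for 16.0% of all genes tested, and every WGP library was below every PBS library for Cx3cr1, which held for 16.0% as well. The median log2 fold change was 0.43 over the members and -0.05 over all genes tested. In bulk RNA, fewer or more cells of a type and less or more RNA per cell cannot be told apart.

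**Figure D1:**
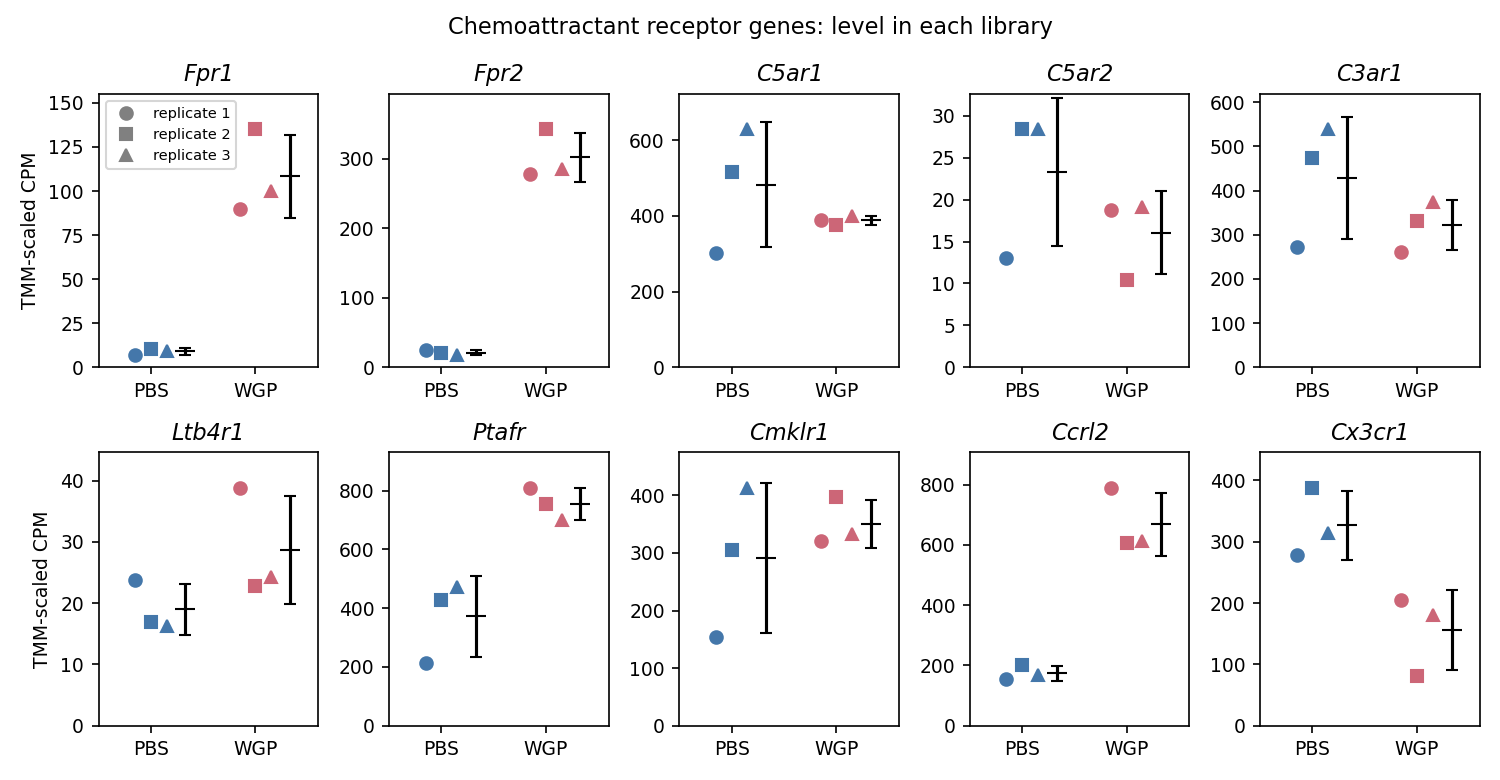
Level of each receptor gene in TMM-scaled CPM (y axis, from 0, with its own scale in each panel) in the 3 PBS (blue) and 3 WGP (red) libraries, with replicates as symbols and the mean ± SD beside them in black. The groups do not overlap for Fpr1, Fpr2, Ptafr, Ccrl2 and Cx3cr1, and PBS replicate 1 lies lowest of the PBS libraries for every gene other than Fpr2 and Ltb4r1.

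Fpr1 and Fpr2 are neighbours on chromosome 17 that point away from each other. Fpr1 lies at chr17:17876471-17883940 on the minus strand and Fpr2 at chr17:17887824-17893952 on the plus strand (GRCm38), with 3883 bases between them. The windows around their start sites, 250 bases before and 50 bases from the start site on, are shown because these neighbours rose together, and that of Ccrl2, on chromosome 9, because it was the other member called higher in all 18 alternative fits. They are RefSeq sequences of GRCm38.p6, 5′ to 3′ on the strand of the gene, from chr17:17883890-17884189 (minus), chr17:17887574-17887873 (plus) and chr9:111057469-111057768 (minus). Capitals mark matches to any of 6 motifs searched on both strands.
Fpr1: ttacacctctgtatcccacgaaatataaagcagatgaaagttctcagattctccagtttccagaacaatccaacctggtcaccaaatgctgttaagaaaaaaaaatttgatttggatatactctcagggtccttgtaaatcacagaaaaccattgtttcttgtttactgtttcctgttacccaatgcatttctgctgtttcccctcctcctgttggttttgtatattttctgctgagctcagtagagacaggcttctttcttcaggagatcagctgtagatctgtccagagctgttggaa
Fpr2: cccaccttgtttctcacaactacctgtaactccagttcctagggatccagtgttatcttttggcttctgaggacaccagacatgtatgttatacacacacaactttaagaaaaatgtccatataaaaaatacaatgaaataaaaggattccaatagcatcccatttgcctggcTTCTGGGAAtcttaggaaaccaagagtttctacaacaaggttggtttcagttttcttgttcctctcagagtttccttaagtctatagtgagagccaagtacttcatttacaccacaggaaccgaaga
Ccrl2: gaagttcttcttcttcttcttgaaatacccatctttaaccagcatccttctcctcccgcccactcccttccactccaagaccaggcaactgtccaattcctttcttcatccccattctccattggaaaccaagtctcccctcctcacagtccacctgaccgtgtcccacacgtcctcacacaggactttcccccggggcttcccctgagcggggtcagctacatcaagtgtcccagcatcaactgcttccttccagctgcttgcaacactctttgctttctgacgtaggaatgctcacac

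The motifs were GAGGAAG for PU.1, the myeloid master regulator, TTGCNNAA for C/EBP, GGGA and TTCC with 2 bases between them for NF-kB, GAAA and GAAA with 2 bases between them for IRF, TGANTCA for AP-1 and TTCNNNGAA for STAT factors. The capitals in the Fpr2 window are a match to the STAT motif, at -77 to -69 where 0 is the first base of the start site, and 8.30% of 32851 mouse windows of this length hold one. Neither the Fpr1 nor the Ccrl2 window held any of the 6. One window was searched for each of the 10 members, the one nearest the start of the annotated gene, and the other windows listed for Ccrl2 (3 in all) and C5ar2 (2 in all) were not searched. Among these 10, the PU.1 motif occurred in that of Ltb4r1 alone (13.6% of all windows), the C/EBP motif in that of C5ar2 alone (10.8%) and the AP-1 motif in that of C3ar1 alone (7.81%). The NF-kB motif (1.47% of all windows) and the IRF motif (3.44%) occurred in none of the 10. A match is a description of these letters and was not tested for binding.

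Fpr1, which encodes the high-affinity receptor for bacterial formyl peptides, was near the bottom of the members in PBS cells, at 6.95, 10.6 and 9.33 CPM, from 267, 411 and 382 counts. In WGP cells it was at 89.9, 135 and 100 CPM, from 3311, 5604 and 4094 counts. The lowest WGP library was far above the highest PBS library, and the means were 8.94 ± 1.83 and 108 ± 23.8 CPM (SD, n = 3). The increase was 12.1-fold, a log2 fold change of 3.60 (SE 0.24, adjusted p = 1.37e-05, edgeR).

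Fpr2 encodes a receptor with a wide choice of ligands, among them formyl peptides, serum amyloid A, cathelicidin and annexin A1. It was at 24.4, 20.3 and 18.0 CPM in PBS cells and at 279, 343 and 286 CPM in WGP cells. The means were 20.9 ± 3.24 and 303 ± 35.1 CPM (SD, n = 3), with no overlap between the groups. Its log2 fold change of 3.85 was the largest of the members (SE 0.18, adjusted p = 3.69e-06, edgeR). The ratio of Fpr2 to Fpr1 per kilobase was 2.41 in PBS and 2.88 in WGP (log2 difference 0.26, exact two-sided permutation p = 0.4, adjusted over 4 ratios 0.8). Single libraries moved this value. PBS replicate 1 did so most, since its log2 ratio of 1.85 was above every WGP library (1.37 to 1.67), those of PBS replicates 2 and 3 (both 0.98) were below, and the log2 difference was 0.55 without it and 0.12 without PBS replicate 2 or without PBS replicate 3. With 3 libraries against 3 this test cannot give a p under 0.1. Of the 75-base windows of the Fpr2 transcripts, 20.9% also occur in transcripts of Fpr3 or Gm5966, so the counts of Fpr2 are uncertain to that extent, while Fpr1 shares none. The family's other members Fpr-rs3, Fpr-rs4, Fpr-rs6 and Fpr-rs7 were at 0 in all libraries, and Fpr3, at 0 in all PBS libraries, did not pass the filter.

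Fpr1 and Fpr2 kept their call in all 18 alternative fits, with log2 fold changes of 3.41 to 3.96 for Fpr1 and 3.63 to 3.98 for Fpr2, and adjusted p from 4.93e-39 to 0.000215 and from 1.96e-92 to 0.000133. Both genes are known from neutrophils. Of 10 neutrophil markers, all tested, 8 had a log2 fold change below 0 and 2 above 0, with a median of -0.82. Without PBS replicate 1 these were 7 and 3, with a median of -0.24. In both fits 1 was called higher and 1 lower, which with all libraries were Cxcr2 and Mmp9. The summed levels overlapped, at 2396 to 6360 CPM in PBS and 2677 to 2792 CPM in WGP. S100a9 was at 1583, 742 and 394 CPM in PBS and at 499, 575 and 518 CPM in WGP, and did not pass (adjusted p = 0.249, edgeR), nor did Ngp, at means of 892 and 368 CPM (adjusted p = 0.104). Csf3r, the receptor gene for the granulocyte growth factor, was at 466, 459 and 429 CPM in PBS and at 875, 616 and 881 CPM in WGP, 1.75-fold higher (adjusted p = 0.00925). The part of changes in cell content in the increase of Fpr1 and Fpr2 was not tested.

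**Figure D2:**
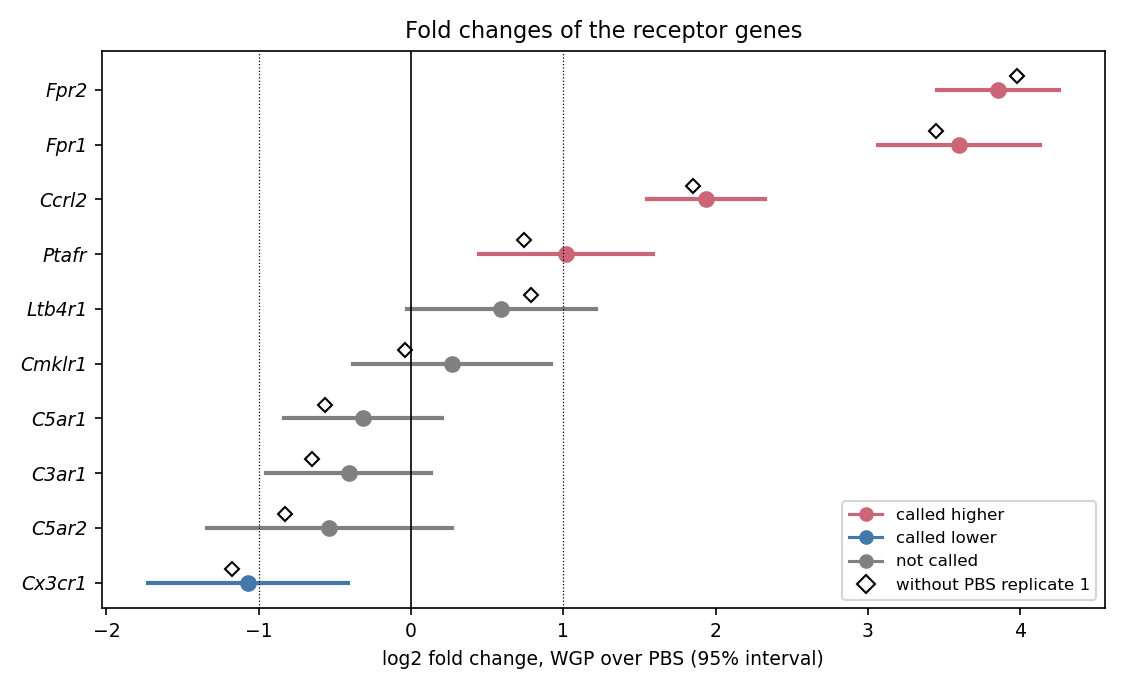
Log2 fold change of WGP over PBS for each receptor gene (x axis; points, with 95% intervals as lines) and the value without PBS replicate 1 (open diamonds). Dotted lines mark an absolute log2 fold change of 1. Fpr2 and Fpr1 stand far to the right at 3.85 and 3.60, and the diamond of Ptafr lies inside the dotted line at 0.74.

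C5ar1, C5ar2 and C3ar1 encode the receptors for the anaphylatoxins. C5ar1 is the signalling receptor for C5a, and C5ar2, its neighbour 2588 bases away on chromosome 7, binds C5a without classical G protein signalling. C5ar1 was at 302, 517 and 629 CPM in PBS cells and at 390, 376 and 399 CPM in WGP cells. The WGP libraries lay close together and inside the range of the PBS libraries. The log2 fold change was -0.32 (95% interval -0.83 to 0.20, adjusted p = 0.422, edgeR).

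C5ar2 was far less abundant, at 13.1, 28.4 and 28.4 CPM in PBS cells and at 18.7, 10.3 and 19.1 CPM in WGP cells. Its log2 fold change was -0.54 (95% interval -1.34 to 0.27, adjusted p = 0.388, edgeR). C3ar1, the receptor gene for C3a, was at 273, 474 and 539 CPM in PBS cells and at 261, 332 and 374 CPM in WGP cells. Its log2 fold change was -0.41 (95% interval -0.95 to 0.13, adjusted p = 0.333, edgeR). For all 3 genes the groups overlapped and PBS replicate 1 was the lowest PBS library, at 0.527 (C5ar1), 0.460 (C5ar2) and 0.538 (C3ar1) of the mean of the other two, against a median of 0.974 over 8568 genes of at least 10 CPM.

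Without PBS replicate 1 the log2 fold change was -0.56 for C5ar1 (adjusted p = 0.0184, edgeR) and -0.65 for C3ar1 (adjusted p = 0.0255), both past the adjusted p and short of the call, where 7.41% of 14193 genes were lower and 8.12% higher by the adjusted p alone. C5ar2 was at -0.83 without that library. With Y-linked counts as a covariate, a fit in which PBS replicate 1 is the sole PBS library of its kind, the 3 genes turned to 0.36 (C5ar1), 0.30 (C5ar2) and 0.24 (C3ar1). No direction can be given for the complement receptor genes. Within a library, the ratio of C5ar1 to C5ar2 per kilobase was 29.2 in PBS and 34.8 in WGP (exact permutation p = 0.6, adjusted 0.8), and that of C3ar1 to C5ar1 was 0.532 and 0.491 (exact permutation p = 0.8, adjusted 0.8).

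The lipid receptor genes were Ltb4r1, which encodes the high-affinity receptor BLT1 for leukotriene B4, and Ptafr, the receptor gene for platelet-activating factor. Ltb4r1 was at 23.8, 16.9 and 16.3 CPM in PBS cells and at 38.8, 22.8 and 24.3 CPM in WGP cells. PBS replicate 1 lay inside the WGP range, and the log2 fold change of 0.59 did not pass (95% interval -0.03 to 1.22, adjusted p = 0.215, edgeR).

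Ptafr was at 214, 429 and 474 CPM in PBS cells and at 810, 755 and 701 CPM in WGP cells. Every WGP library was above every PBS library, and PBS replicate 1 was the lowest PBS library at 0.475 of the mean of the others. The means were 372 ± 139 and 755 ± 54.8 CPM (SD, n = 3), a 2.03-fold increase (log2 fold change 1.02, SE 0.26, adjusted p = 0.0236, edgeR). This call was close to both thresholds. It was lost in 6 of 18 alternative fits, at a log2 fold change of 0.74 without PBS replicate 1, 0.99 with upper-quartile scaling and 0.93 with library totals only, and at an adjusted p of 0.0531 without PBS replicate 2, 0.0783 without WGP replicate 1 and 0.0551 without WGP replicate 3, while all 18 kept a higher level in WGP (0.74 to 1.82, the latter with Y-linked counts as a covariate).

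Cmklr1 and Ccrl2 encode receptors for chemerin. Cmklr1 is the signalling receptor, while Ccrl2 binds chemerin and presents it without signalling itself. Cmklr1 was at 154, 305 and 413 CPM in PBS cells and at 321, 397 and 333 CPM in WGP cells. The groups overlapped and the log2 fold change was 0.27 (95% interval -0.38 to 0.92, adjusted p = 0.611, edgeR). The value moved with single PBS libraries, to -0.04 without PBS replicate 1 and 0.61 without PBS replicate 3, and it was 1.19, a call (adjusted p = 0.00946), with Y-linked counts as a covariate.

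Ccrl2 was at 154, 203 and 167 CPM in PBS cells and at 790, 605 and 612 CPM in WGP cells, with no overlap. The means were 175 ± 25.0 and 669 ± 105 CPM (SD, n = 3), a 3.83-fold increase (log2 fold change 1.94, SE 0.17, adjusted p = 6.24e-05, edgeR). The call held in all 18 alternative fits, with log2 fold changes of 1.80 to 2.12 and adjusted p up to 0.000616. Rarres2, which encodes chemerin itself, was scarce, at means of 2.84 and 3.91 CPM, and did not pass (adjusted p = 0.892).

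Cx3cr1, the receptor gene for the membrane-bound chemokine fractalkine, was the member that fell. It was at 278, 388 and 314 CPM in PBS cells and at 205, 81.1 and 181 CPM in WGP cells. All WGP libraries were below all PBS libraries, and WGP replicate 2 was well below the other two. The means were 327 ± 56.2 and 156 ± 65.6 CPM (SD, n = 3), 2.10-fold lower in WGP (log2 fold change -1.07, SE 0.30, adjusted p = 0.0367, edgeR). The call was lost in 6 of 18 alternative fits, those without WGP replicate 2 (log2 fold change -0.76), without PBS replicate 2 (adjusted p = 0.137), without PBS replicate 3 (0.0665) or without WGP replicate 3 (0.0692), with edgeR's own low-count filter (0.0526) and with Y-linked counts as a covariate (log2 fold change -0.84, adjusted p 0.231). Without PBS replicate 1 it was kept (-1.18, adjusted p = 0.0313, edgeR). The value stayed below 0 in all 18, from -1.32 to -0.76.

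Ccr2, the chemokine receptor gene of Ly6C-high monocytes, was taken beside Cx3cr1 because high levels of one or the other mark the main monocyte subsets. Ccr2 was at 224, 369 and 407 CPM in PBS cells and at 1497, 1061 and 1386 CPM in WGP cells, and rose by a log2 fold change of 1.98 (SE 0.24, adjusted p = 0.000349, edgeR). The ratio of Ccr2 to Cx3cr1 per kilobase was below 1 in each PBS library and above 1 in each WGP library, 0.665 and 6.01 as geometric means (log2 difference 3.18, exact two-sided permutation p = 0.1, the smallest this design allows, adjusted 0.4).

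Markers of the cell types that carry these receptors moved as well. Of 10 resident macrophage markers, 8 were called lower and none higher, with summed levels of 9397 to 19571 CPM in PBS and 3613 to 5734 CPM in WGP. Of 8 Ly6C-high monocyte markers, 5 were called higher (Ccr2 and Plac8 among them) and 1, F13a1, lower, and the summed levels of 2671 to 4232 CPM in PBS and 3865 to 4439 CPM in WGP overlapped. F13a1 made this overlap, since the other 7 markers, looked at after the values were seen, summed to 758 to 1336 CPM in PBS and 3518 to 4005 CPM in WGP. Of 7 Ly6C-low monocyte markers, 1 was called higher and 2 lower, with overlapping summed levels of 1362 to 1824 CPM in PBS and 651 to 1389 CPM in WGP. Without Nr4a1, the most abundant, the sums of the other 6 did not overlap, at 425 to 494 CPM and 251 to 342 CPM, a split looked at after the values were seen, although Treml4, which was called higher, is among these 6. WGP replicate 2, the library with the least Cx3cr1, had the lowest sum. Markers of B cells and of acinar cells, the enzyme-making cells of the pancreas, fell too. All 5 B cell markers were called lower, with summed levels of 361 to 2414 CPM in PBS and 86.8 to 169 CPM in WGP, and so were the 7 acinar cell markers tested of 9, with 1164 to 4646 CPM and 325 to 543 CPM. The part of any of these markers' cells in the change of a receptor gene was not tested.

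**Figure D3:**
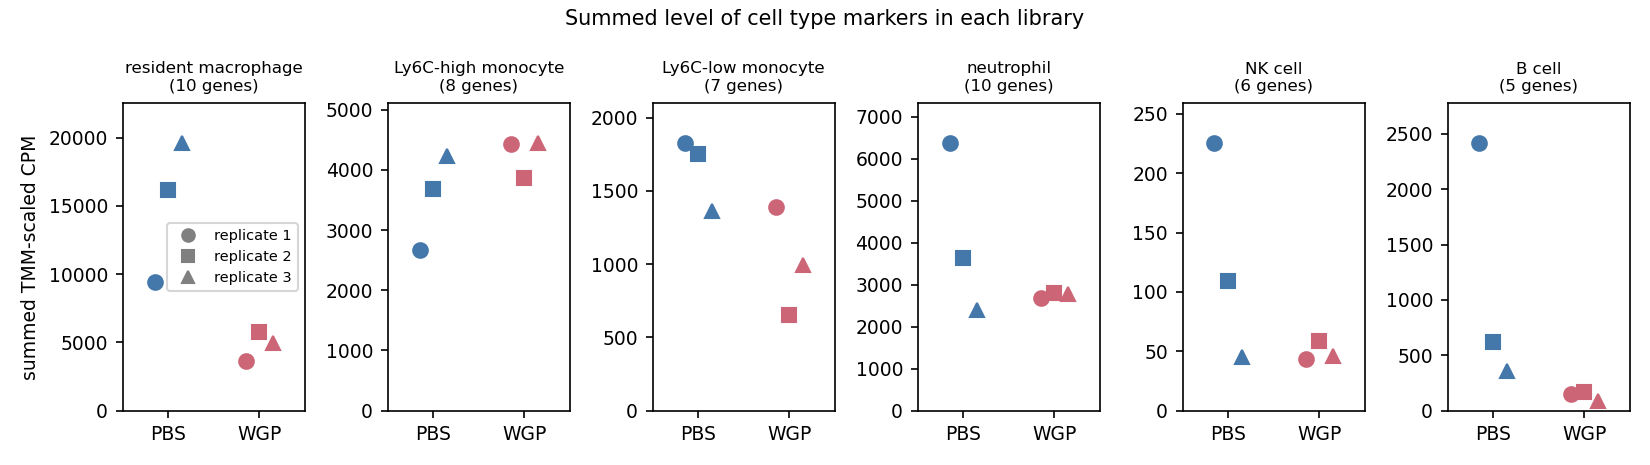
Summed level in TMM-scaled CPM (y axis, from 0, with its own scale in each panel) of the markers of 6 cell types in the 3 PBS (blue) and 3 WGP (red) libraries, with replicates as symbols. Resident macrophage and B cell markers are lower in every WGP library than in every PBS library, and PBS replicate 1 has the fewest resident macrophage and the most neutrophil, NK and B cell counts of the PBS libraries.

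Levels can be compared between genes only per kilobase of exon. In PBS cells C5ar1 was the most abundant member at 188 ± 64.6 CPM per kilobase (SD, n = 3), followed by Ptafr (102), C3ar1 (99.5), Cmklr1 (85.2), Cx3cr1 (72.5) and Ccrl2 (67.2). The ranges of each pair of neighbours in this order overlapped down to Ccrl2. A gap separated these from Fpr2 (16.2 ± 2.50), Ltb4r1 (13.6), Fpr1 (6.76) and C5ar2 (6.54), among which only Ltb4r1 and Fpr1 did not overlap as neighbours.

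In WGP cells Ccrl2 (258 ± 40.4), Fpr2 (233 ± 27.1) and Ptafr (208 ± 15.1 CPM per kilobase) were at the top, with overlapping ranges between neighbours, and lay above C5ar1 (151 ± 4.54). Cmklr1 (103), Fpr1 (81.8) and C3ar1 (74.9) followed, with overlapping ranges between neighbours. Cx3cr1 (34.5), Ltb4r1 (20.6) and C5ar2 (4.51) were last.

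Read as shares of the summed level of the 10 genes per kilobase, Fpr1 and Fpr2 together held 5.34%, 3.26% and 2.63% in the PBS libraries and 23.7%, 31.0% and 26.3% in the WGP libraries. The 3 complement receptor genes held 40.9%, 43.9% and 47.5% in PBS and 18.2%, 19.1% and 22.0% in WGP. Neither pair of groups overlapped, although no complement receptor gene was called on its own. The summed level was 658 ± 183 CPM per kilobase in PBS and 1169 ± 36.8 in WGP (SD, n = 3), so a share can fall without a fall in level.

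**Figure D4:**
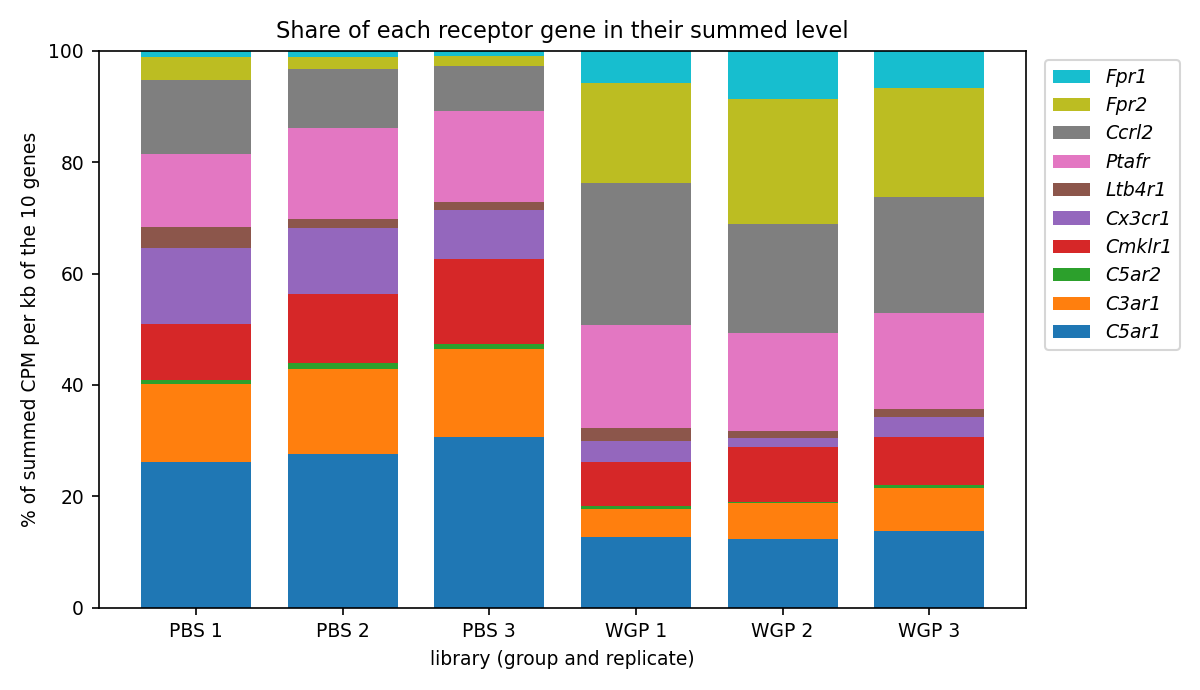
Share of each receptor gene in the summed CPM per kilobase of the 10 genes (y axis, in percent) in each of the 6 libraries. The Fpr1 and Fpr2 segments grow from a mean of 3.74% in PBS to 27.0% in WGP, and the C5ar1, C3ar1 and C5ar2 segments shrink from 44.1% to 19.8%.

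The genes whose pattern over the 6 libraries was most like that of Fpr2, by Pearson's r of log2(CPM + 1) among 8568 genes, were 1600014C10Rik (0.9996), Rnf114, which encodes a ubiquitin ligase (0.9984), and Mmp14, which encodes a membrane-bound matrix metalloprotease (0.9980). Those most like Cx3cr1 were Arap3 (0.9910), Hic2 (0.9896) and Slc15a2, a peptide transporter gene (0.9869). These values describe 6 libraries that fall into 2 groups, and no test was made.

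Several genes for the ligands and lipid mediators of these receptors changed. Of the 8 ligand genes, 2 were called higher and none lower, beside 4.53% and 4.96% of all genes tested. Saa3, a serum amyloid A gene, was at 5.85, 3.52 and 15.0 CPM in PBS cells and at 384, 1233 and 780 CPM in WGP cells (log2 fold change 6.62, SE 0.63, adjusted p = 9.61e-05, edgeR; 7.42 without PBS replicate 3). C3, the precursor of C3a, was at 384, 359 and 235 CPM in PBS cells and at 2942, 3930 and 3253 CPM in WGP cells (log2 fold change 3.37, SE 0.23, adjusted p = 1.49e-05). Both genes separated the groups by a wide margin, while Anxa1, which encodes annexin A1, was at means of 144 and 122 CPM and did not pass (adjusted p = 0.517).

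Of 13 genes for enzymes that make or break leukotriene B4 and platelet-activating factor, 3 were called higher and 1 lower, beside 4.53% and 4.96% of all genes tested. Alox5, the 5-lipoxygenase gene at the first step towards leukotriene B4, fell from 205 ± 49.0 to 46.2 ± 10.04 CPM (log2 fold change -2.15, adjusted p = 0.000160, edgeR), while its partner gene Alox5ap was at 362 and 399 CPM and did not pass (adjusted p = 0.608). Lpcat2, whose enzyme makes platelet-activating factor, rose from 65.9 ± 16.5 to 246 ± 18.2 CPM (1.90, adjusted p = 0.000119). Pla2g7, whose enzyme degrades it, rose from 245 ± 88.5 to 1089 ± 195 CPM (2.15, adjusted p = 0.000416, and 2.81 with Y-linked counts as a covariate), and the cytosolic phospholipase gene Pla2g4a from 25.9 ± 5.57 to 62.7 ± 19.0 CPM (1.28, adjusted p = 0.00714; each SD, n = 3). A maker and a breaker of platelet-activating factor thus both rose.

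Downstream of the receptors, 2 of 21 genes for G protein subunits and effectors were called higher and 1 lower, beside 4.53% and 4.96% of all genes tested. Pik3r5 (log2 fold change 1.33, adjusted p = 0.00111, edgeR) and Pik3r6 (1.06, adjusted p = 0.0129), which rose, encode the regulatory subunits of phosphoinositide 3-kinase gamma, and Gna15 (-1.08, adjusted p = 0.00397), which fell, encodes a G alpha subunit of blood cells. Gna15 lost its call with Y-linked counts as a covariate (-0.85), where Pik3r6 was at 1.68. Without PBS replicate 1, WGP replicate 3 or with library totals only, Pik3r6 was no longer called (0.83, 0.93 and 0.97). Gnai2, the most abundant gene of this list, was at 1219 ± 35.8 and 1303 ± 47.7 CPM and did not pass (adjusted p = 0.715). Of 14 genes for receptor kinases, arrestins and RGS proteins, which end the signal, none was called higher and 2 lower, Rgs3 (-1.26, adjusted p = 0.00495) and Rgs18 (-1.32, adjusted p = 0.0168), and Rgs18 lost its call without PBS replicate 3 (adjusted p = 0.0699), without WGP replicate 3 (0.0634) and with Y-linked counts as a covariate (0.125).

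Of 10 further chemoattractant receptor genes 6 passed the filter, and 1 was called higher and 1 lower. Cysltr1, a receptor gene for cysteinyl leukotrienes, did not pass at a log2 fold change of 0.43 (adjusted p = 0.360), was at 0.16 without PBS replicate 1, and became a call at 1.18 with Y-linked counts as a covariate. Gpr84, a receptor gene for medium-chain fatty acids, rose from 6.72 ± 3.18 to 81.2 ± 16.6 CPM (log2 fold change 3.60, adjusted p = 0.000164, edgeR), a change of the size of that of Fpr1. Gpr183, the receptor gene for oxysterols, fell from 106 ± 5.87 to 18.9 ± 3.67 CPM (-2.49, adjusted p = 2.4e-05; each SD, n = 3). Over all the ligand, lipid, signalling and further receptor lists, 8 of 62 genes tested were called higher (12.9%) and 5 lower (8.06%), beside 4.53% and 4.96% of all genes tested.

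**Figure D5:**
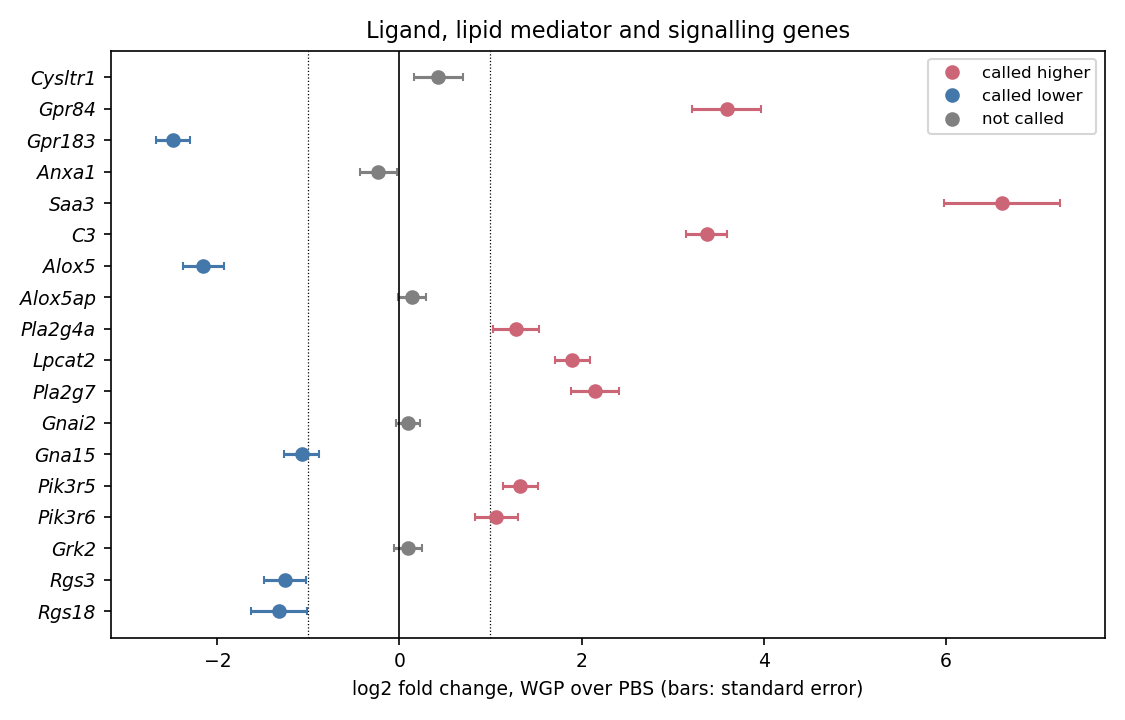
Log2 fold change of WGP over PBS (x axis; points, with standard errors as bars) for the called genes of the ligand, lipid enzyme, signalling and further receptor lists, and for the most abundant gene of each list that was not called (grey). Saa3 lies farthest to the right at 6.62, and Gpr183 and Alox5 farthest to the left at -2.49 and -2.15.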

How the data were processed

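RNA of CD45+CD11b+ pancreatic cells was sequenced in 3 PBS and 3 WGP libraries as single-end reads of 75 bases. The authors aligned reads to GRCm38.p6 (mm10) with STAR 2.6 and deposited raw counts per Ensembl gene from HTSeq 0.10.0, per the submitters' processing notes. The annotation release, strand setting and handling of duplicates are not given in the sources used here. Without a known strand setting, the 78 bases by which Cx3cr1 overlaps an antisense gene are uncertain. The exon bases shared on the same strand by Fpr2 with Fpr3 (48) and by C5ar2 with Gm26473 (127) are uncertain under any setting.

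IDs were matched to symbols through GENCODE vM21. In R 4.3.3, protein-coding genes whose RLE-normalized counts added up to 10 or more were tested with edgeR 4.0.16 (quasi-likelihood, TMM, no covariates), with Benjamini-Hochberg adjustment over all 14429 genes. The pipeline was tested on simulated data. Ratios were compared by exact permutation tests (scipy 1.17.1). Levels are TMM-scaled CPM. CPM per kilobase use the union of exons. Intervals cover 95%.

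The members and lists were chosen with earlier results of these data known. Named are all members, the called genes and at most 2 others of each list, at most 3 abundant markers of a cell type, the 3 genes most like the member with the largest rise or fall, and Ccr2. Rarres2, Fpr3, the Fpr-rs genes, Cxcr2 and Mmp9 lie outside this rule and were chosen after their values were seen. Itgam, named as the gene of the sort marker CD11b, and Treml4 lie outside it too.

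Alternatives were, for the ratios, the longest transcript's length, and otherwise RLE, upper-quartile and library-total scaling, DESeq2 1.42.0, limma-voom 3.58.1, 3 other filters, each library left out, the replicate number as a block, Y-linked counts as a covariate, thinning to the smallest total, a fold change threshold of 2 on the log2 scale, and, chosen after seeing the data, division by the most frequent low count.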

Additional observations from a re-analysis of the deposited data

How the results depend on the processing

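Among 18 alternative fits, Fpr1, Fpr2 and Ccrl2 were called higher in each. Cmklr1 was called higher only with Y-linked counts as a covariate. The number of members called higher was 4 as reported, and 3 with upper-quartile scaling and with library totals only. It was 2 (Fpr1 and Fpr2) at a threshold of 2 on the log2 scale. The number called lower was 1 as reported and 0 at that threshold, with filterByExpr and with Y-linked counts as a covariate, and by the adjusted p alone it was also 0 in the last 2. The ligand, lipid, signalling and further receptor lists held 8 genes called higher and 5 called lower, and 4 and 2 at the threshold of 2. By the adjusted p alone they held 5 lower genes, 6 or 7 in several other fits (7 with library totals only and with DESeq2), and 8 with counts divided by the most frequent low count. With 1 library left out, 3 to 4 members were called higher and 0 to 1 lower, and 3 to 4 and 0 to 3 by the adjusted p alone. The lists then gave 7 to 8 and 4 to 6 called, and 7 to 8 and 5 to 6 by the adjusted p alone. The log2 differences of the ratios then ranged from -0.21 to 0.031 (C3ar1 to C5ar1, above 0 without WGP replicate 1), from -0.013 to 0.39 (C5ar1 to C5ar2, below 0 without WGP replicate 2), from 2.91 to 3.36 (Ccr2 to Cx3cr1) and from 0.12 to 0.55 (Fpr2 to Fpr1). Directions turned for C5ar1 (0.36), C5ar2 (0.30) and C3ar1 (0.24) with Y-linked counts as a covariate, for Cmklr1 (-0.037) without PBS replicate 1 (0.61 without PBS replicate 3, the highest with 1 library left out), for Gnai2 (-0.0069) and Grk2 (-0.0091) with library totals only, and for Grk2 (-0.018) with Y-linked counts. Slc15a2 lost its call in 5 alternative fits and Hic2, not called as reported, was called in 6. Scaling by library totals only moved the median of all genes from -0.05 to -0.16. The cause of these changes was not tested.

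No pairing by replicate number was seen. The deviations of same-numbered libraries correlated at 0.0356, -0.0664 and 0.0554, and those of unlike numbers at -0.086 to 0.0538. With 3 libraries in each group, this cannot exclude that same-numbered libraries were prepared together. With the replicate number as a block, 4 members were called higher and 1 lower, as without it. Fpr1 had as few as 267 counts in PBS, 6.46 times the most frequent low count of its library. The counts do not show how many reads came from 1 molecule.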
